A study of Mus musculus with 4 samples.

Results

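The Dlg and Dlgap genes encode scaffold proteins of the synapse, and the CTCF sites in and around them were taken from 2 lists of ChIP-seq peaks of the mouse embryonic forebrain. Members were Dlg1 to Dlg4 and Dlgap1 to Dlgap4, found by symbol in the RefSeq gene table of GRCm38.p6 (mm10 coordinates). All 8 were found, among 21887 protein-coding genes on chromosomes 1 to 19, X and Y. The series has 4 samples of mouse embryos at embryonic day 13.5, each a single library without a replicate: CTCF and input from telencephalon, and CTCF and input from the medial ganglionic eminence (MGE), the ventral swelling of the telencephalon where many cortical interneurons are born. No strain, genotype or treatment is given in the labels. CTCF libraries were made with a rabbit antibody from Cell Signaling Technology, and the input libraries, made without antibody, were not analysed here. Dissection of the MGE is described for all samples, and whether the telencephalon sample held it is not stated. The telencephalon track is named e14, so its stage is uncertain. Libraries were made with different New England Biolabs kits, so the tissue and the kit of a list cannot be told apart.

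The Dlg proteins are membrane-associated guanylate kinases. Their PDZ domains hold glutamate receptors, potassium channels and adhesion proteins at the postsynaptic membrane. Their guanylate kinase domain, which has no enzyme activity, binds the Dlgap proteins (also called SAPAP or GKAP), which in turn bind the Shank scaffolds, so that the families form successive layers of the postsynaptic density. CTCF is a zinc finger DNA-binding protein that stops cohesin as it extrudes loops of chromatin, and its sites lie at many loop anchors, domain borders and promoters. Several of these genes have start sites deep inside the gene, and at such genes a site within the body may lie close to a promoter.

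The genes were chosen with results of these lists in view, and the measures behind the choice were the peaks in the genes and within 100 kb, their widths, their sharing and their number per Mb. Those values are therefore descriptions, and no test was made. A peak was counted in a gene if it overlapped it by at least 1 bp, and it was called shared if 1 bp or more of it lay in a peak of the other tissue. The MGE list held 25625 peaks on the chromosomes used and the telencephalon list 31886, of which 58.4% and 47.0% were shared. Their narrowest widths differed. In the MGE list 28.9% of peaks had the minimum of 244 bp, against 5.74% at the minimum of 150 bp in the telencephalon list. Only 19.1% of MGE peaks at the minimum were shared, against 74.4% of wider MGE peaks. Read depth is unknown from peak lists, which also hold no expression by which the tissue labels could be checked. Both tissues are mixtures of cells, so a site bound in few cells and a site bound weakly in many cannot be told apart. Intervals are exact 95% intervals (Clopper-Pearson for shares, Poisson for densities) and cover counting error alone.

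Peaks over a listed promoter were found at Dlgap4 and Dlg3 alone among the members. RefSeq windows of 300 bases (250 before a start and 50 after it, GRCm38.p6) were listed for 16 starts of 7 members. Dlgap2 was not matched. All of these starts are on the plus strand. The Dlgap4 window was overlapped by peaks of both lists, 1 Dlg3 window by a telencephalon peak alone, and the other 14 by none. Over all 32851 listed windows, 3.83% were overlapped by an MGE peak, 6.46% by a telencephalon peak and 3.35% by both. The 250 bases before 4 starts are printed to show the peak-bearing promoters beside promoters that carry a similar motif without a peak. Capitals mark a loose form of the CTCF core, searched on both strands: CC, any 3 bases, AG, any 2 bases, GGC.
Dlgap4, chr2:156720715-156720964, peaks of both lists: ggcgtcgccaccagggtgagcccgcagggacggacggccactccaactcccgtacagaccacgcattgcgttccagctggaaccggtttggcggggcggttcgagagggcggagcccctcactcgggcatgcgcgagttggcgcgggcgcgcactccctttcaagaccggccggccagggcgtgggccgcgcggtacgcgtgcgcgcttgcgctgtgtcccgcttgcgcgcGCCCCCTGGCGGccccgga
Dlg3, chrX:100774245-100774494, telencephalon peak alone: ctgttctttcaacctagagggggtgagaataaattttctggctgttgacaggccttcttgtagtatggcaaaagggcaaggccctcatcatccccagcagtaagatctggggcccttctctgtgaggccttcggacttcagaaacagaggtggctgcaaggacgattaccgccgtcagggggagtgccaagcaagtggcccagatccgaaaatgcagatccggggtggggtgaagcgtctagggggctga
Dlgap1, chr17:69968823-69969072, no peak: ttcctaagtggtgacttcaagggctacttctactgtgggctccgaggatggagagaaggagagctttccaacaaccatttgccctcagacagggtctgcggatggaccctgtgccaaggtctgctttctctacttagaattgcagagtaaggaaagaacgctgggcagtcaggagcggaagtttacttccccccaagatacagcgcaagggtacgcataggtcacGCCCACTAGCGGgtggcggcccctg
Dlg1, chr16:31663685-31663934, no peak: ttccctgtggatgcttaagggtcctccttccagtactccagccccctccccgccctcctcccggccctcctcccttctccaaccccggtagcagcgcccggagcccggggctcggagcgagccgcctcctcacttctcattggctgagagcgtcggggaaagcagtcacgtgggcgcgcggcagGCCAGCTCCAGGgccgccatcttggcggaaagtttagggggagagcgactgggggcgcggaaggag

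The match in the Dlgap4 promoter covered bases 232 to 243 of the printed run (chr2:156720946-156720957), and read on the opposite strand it was CCGCCAGGGGGC. It lay inside the peaks of both lists. Dlgap1 (bases 226 to 237, CCGCTAGTGGGC) and Dlg1 (bases 185 to 196, CCTGGAGCTGGC) each had 1 match on the opposite strand and no peak of either list over the window. The Dlg3 window under a telencephalon peak had no match. A stricter form, with A as the third base (CCA, any 2 bases, AG, any 2 bases, GGC), was found in none of the 16 windows. That form is rare, so its absence from 16 windows says little. It was present in 2.43% of all listed windows, 1.70% of those without a peak and 17.9% of those with peaks of both lists. The stricter matches are also matches of the looser form, which was written after the sequences had been read. The looser form was present in 8.61% of all listed windows, in 6.82% of those without a peak (interval 6.54 to 7.10%), in 21.7% of those with an MGE peak alone (15.5 to 28.9%), in 22.5% of those with a telencephalon peak alone (20.0 to 25.2%) and in 43.6% of those with peaks of both lists (40.6 to 46.6%). A match is a run of letters, not a shown binding site.

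Dlg2, which encodes the scaffold PSD-93, held most of the MGE peaks of the family (chr7:90476188-92449246, 1973059 bp, the gene with length rank 7 among protein-coding genes). It held 25 MGE peaks and 9 telencephalon peaks, or 12.7 per Mb (interval 8.20 to 18.7) and 4.56 per Mb (2.09 to 8.66). The lists differed in opposite ways at Dlg2 and over the genome, where the telencephalon list was the longer. The difference of 16 peaks was larger than at any other protein-coding gene in the table. Macrod2 followed with 18 and 8 peaks, Lingo2 with 11 and 2, and Lrba with 11 and 2. These are differences in number, which can be larger in longer genes. Per Mb, Dlg2 was not the most extreme, and Lrba, for instance, had 19.7 MGE and 3.58 telencephalon peaks. Of the 227 genes of at least 500 kb, 200 had fewer MGE peaks per Mb than Dlg2, and 81 had fewer telencephalon peaks per Mb. Among the 227 protein-coding genes of at least 500 kb, 104 had more MGE than telencephalon peaks (45.8%) and 95 had more telencephalon than MGE peaks. Genes of this length were thus split nearly evenly between the directions. Of all 21887 protein-coding genes 7.65% had more MGE peaks, and most, 15343, had equal counts. Shorter genes more often had the higher count in telencephalon. Under 100 kb, 1069 genes had more MGE and 3685 more telencephalon peaks. At 100 to 500 kb these numbers were 501 and 1090.

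**Figure D1:**
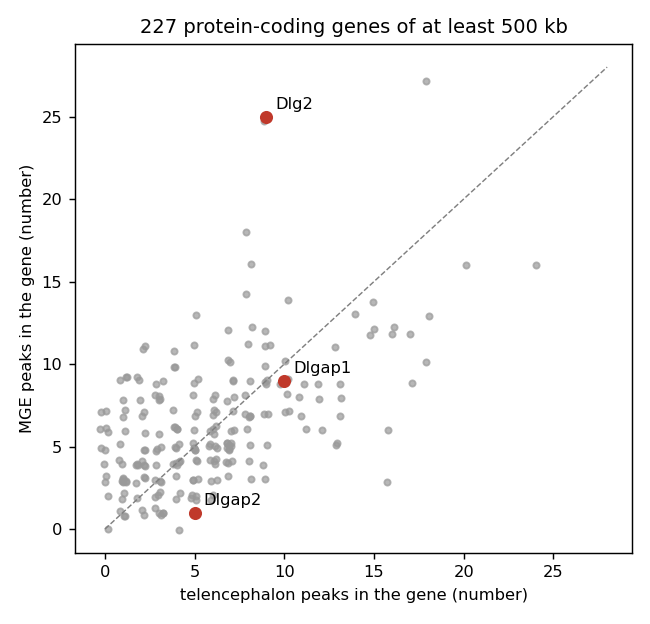
Each point is 1 of 227 protein-coding genes of at least 500 kb, with its telencephalon peaks on the x axis and its MGE peaks on the y axis (numbers, with a small random shift of the grey points so that equal values can be seen), and the dashed line marks equal counts. Dlg2, at 9 and 25, lies far above the line, Dlgap1 lies near it at 10 and 9, and Dlgap2 lies below it at 5 and 1.

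Most MGE peaks in Dlg2 were narrow and had no telencephalon partner. Of the 25, 14 had the list's minimum width of 244 bp and none of these was shared. In protein-coding genes of at least 500 kb, 40.8% of MGE peaks had the minimum width. In those genes 35.3% of MGE peaks were shared, against 20.0% in Dlg2 (interval 6.83 to 40.7%). Narrow and unshared MGE peaks were thus common in genes of this length. Of the 11 wider MGE peaks 5 were shared, and the telencephalon list had 9 peaks in the gene, of which 5 were shared. Among peaks above the minimum width the lists thus stood at 11 and 9. In the wider 50% of each list Dlg2 held 6 MGE and 7 telencephalon peaks, and the direction of the difference turned. The threshold of calling is not given, the header of the MGE list reads p01 and that of the telencephalon list p001, and the part of the calling in the excess was not tested.

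The shared sites of Dlg2 lay between 48.4% and 82.5% of the way along the gene. The first of them lay 956 kb from the lower end of the gene (MGE chr7:91431859-91432280, 422 bp; telencephalon chr7:91431914-91432228, 315 bp). A neighbour followed at chr7:91457240-91457562 in MGE and chr7:91457180-91457611 in telencephalon. The other 3 lay together further on, at MGE chr7:92027189-92027457, chr7:92094002-92094269 and chr7:92102969-92103310, the last 2 of which overlap the annotated gene 4930567K12Rik. From the first to the last, the shared sites spanned 671 kb. The lower-coordinate 956 kb, which includes a listed start, held no shared site.

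Unshared peaks filled other parts of Dlg2. The first telencephalon peak in the gene came after 751 kb (chr7:91226489-91226943, 455 bp), and it was the widest telencephalon peak in the gene although it had no MGE partner. In the MGE list the longest stretch without a peak was 234 kb. An MGE peak of 313 bp (chr7:91087256-91087568) lay 3218 bp upstream of the listed start at 91090786, whereas the nearest telencephalon peak to that start was 135703 bp away. At the other listed starts, 92062394 and 92234970, the nearest MGE peaks were 31608 and 16660 bp away, and the nearest telencephalon peaks 31486 and 88819 bp away. No listed start of Dlg2 had a peak of either list within 1 kb. Below the gene, a shared site 65833 bp away in MGE lay at an end of Sytl2, an MGE peak of 244 bp lay at an end of Crebzf, and a telencephalon peak of 306 bp lay at the promoter of Tmem126a.

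The genes of at least 500 kb with the densities most like those of Dlg2 in the 2 lists were Agbl1 (11.2 and 4.47 peaks per Mb in MGE and telencephalon), Ralyl (11.3 and 4.22) and Vps13b (10.7 and 5.36). Likeness was the sum of the absolute differences in peaks per Mb over the 2 lists, across 226 other genes. These genes are between 560 and 895 kb long and held 10, 8 and 6 MGE peaks.

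**Figure D2:**
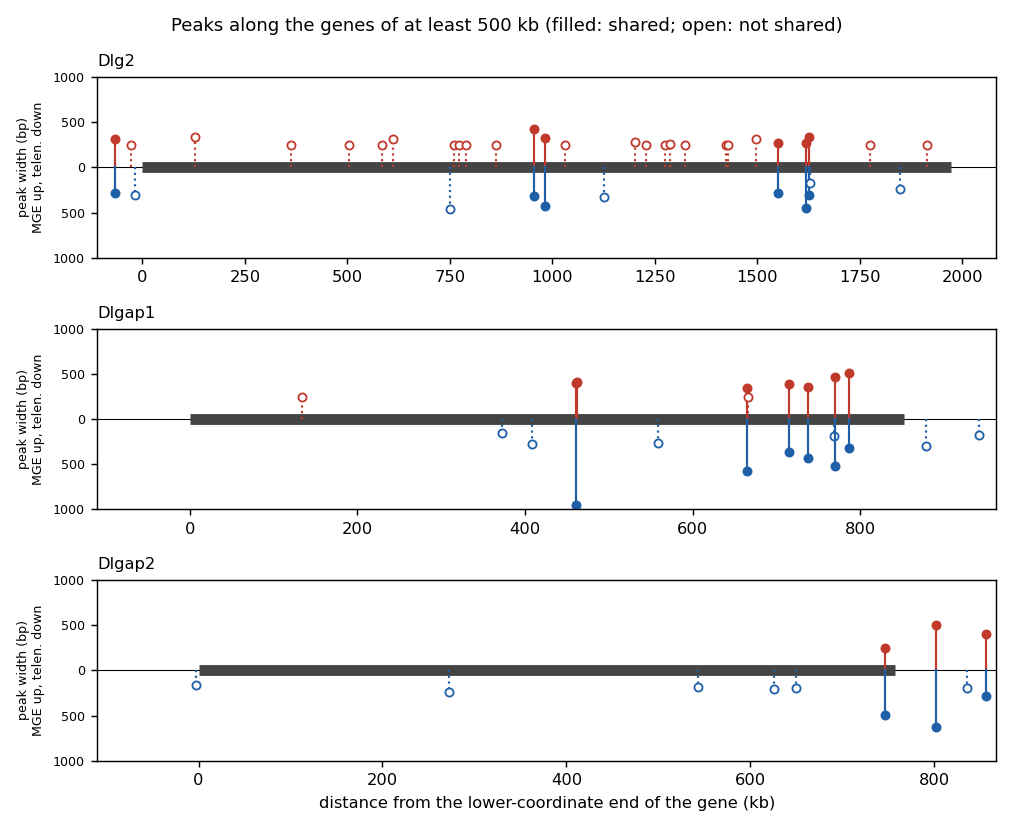
The 3 longest members are drawn as dark bars, with distance from the lower-coordinate end in kb on the x axis, and each peak is a stem whose height is its width in bp, MGE upward and telencephalon downward (filled if shared, open if not). Dlg2 has many open MGE stems of 244 bp along its length, Dlgap1 has its shared peaks beyond 460 kb, and Dlgap2 has its sole shared peak close to its upper-coordinate end.

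Dlg1 encodes SAP97, a scaffold found both at synapses and at epithelial junctions (chr16:31663443-31873356, 209914 bp). It held 5 MGE peaks (23.8 per Mb, interval 7.73 to 55.6) and 3 telencephalon peaks (14.3 per Mb, 2.95 to 41.8). Of these, 2 in each list were shared. Densities in protein-coding genes of 100 to 500 kb as a class were 9.42 and 12.5 per Mb. Of the 5 MGE peaks 3 had the minimum width. Without peaks at the narrowest width, Dlg1 held 2 MGE and 3 telencephalon peaks. One shared site (MGE chr16:31724156-31724407; telencephalon chr16:31724231-31724416) was narrow in both lists, at 252 and 186 bp. The other was at the minimum width in MGE (chr16:31750710-31750953, 244 bp) and 432 bp wide in telencephalon (chr16:31750427-31750858). This second site lay 3397 bp in MGE and 3492 bp in telencephalon upstream of the listed start at 31754350. The 2 starts at the beginning of the gene had no MGE peak nearer than 16800 bp and no telencephalon peak nearer than 41379 bp.

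The flanks of Dlg1 were unequal. No peak of either list lay within 100 kb below the gene, where the nearest were 204678 bp (MGE) and 144284 bp (telencephalon) away. Above the gene lay 4 MGE peaks, all shared, and 5 telencephalon peaks, of which 4 were shared. The nearest of them, 5171 bp from Dlg1 in MGE and 5097 bp in telencephalon, overlapped the promoter of Meltf, the neighbouring gene for melanotransferrin (MGE chr16:31878527-31878977, 451 bp). The widest lay inside Pigz (541 bp in MGE and 593 bp in telencephalon). Sites above Dlg1 were thus wider than those inside it in MGE, where the widest in the gene was 301 bp.

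Dlg3 encodes SAP102, an X-linked scaffold abundant at young synapses (chrX:100767411-100818410, 51000 bp). It had no MGE peak in the gene and 2 telencephalon peaks, both unshared. The first, chrX:100774270-100774538 (269 bp), covered the listed start at 100774495. The second, chrX:100776559-100776840 (282 bp), ended 431 bp before the listed start at 100777271. Both lay inside the annotated gene, the first over a listed start and the second upstream of the other. The nearest MGE peak to these starts was the same for both, 32160 and 34936 bp away. A telencephalon peak of 158 bp lay 1314 bp below the gene, and a shared site of 318 bp in MGE and 150 bp in telencephalon lay 25076 bp below it in MGE and 25192 bp below it in telencephalon. Neither list had a peak within 100 kb above Dlg3. The telencephalon peaks at the Dlg3 starts were near the middle of that list's widths, with 47.5% and 51.9% of its peaks being narrower.

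Dlg4 encodes PSD-95, the major scaffold of mature excitatory synapses (chr11:70017203-70045535, 28333 bp). It was the member without a peak in the gene in either list. Of protein-coding genes under 100 kb, only 25.2% had an MGE peak in the gene and 33.5% a telencephalon peak. Its neighbourhood was the richest of the family, with 7 MGE and 9 telencephalon peaks within 100 kb, 6 of each shared. Over all protein-coding genes the median was 3 MGE and 4 telencephalon peaks in such flanks. The sites nearest to Dlg4 enclosed it. The lower one, inside Dvl2, a gene of Wnt signalling, was 14956 bp away in MGE (chr11:70001896-70002247, 352 bp) and 14782 bp away in telencephalon (chr11:70001947-70002421, 475 bp). The upper one, inside Asgr1, was 10131 bp away in MGE (chr11:70055666-70055991, 326 bp) and 10083 bp away in telencephalon (chr11:70055618-70056145, 528 bp). Between the lower and the upper shared site there was no peak of either list, and the 3 listed starts of Dlg4 lie in that interval.

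Of the peaks around Dlg4, 2 of 7 in MGE and 3 of 9 in telencephalon lay within 1 kb of an end of another gene. Eif5a, which encodes a translation factor, and Slc2a4, which encodes the glucose transporter GLUT4, had a shared site within 1 kb of an end. A telencephalon peak of 315 bp (chr11:69995475-69995789) at the promoter of Phf23 and within 1 kb of an end of Gabarap had no MGE partner. A telencephalon peak of 526 bp, 28950 bp above Dlg4, was also unshared, although 91.3% of peaks in its list were narrower. An MGE peak of 272 bp, 18297 bp above the gene, was unshared as well.

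**Figure D3:**
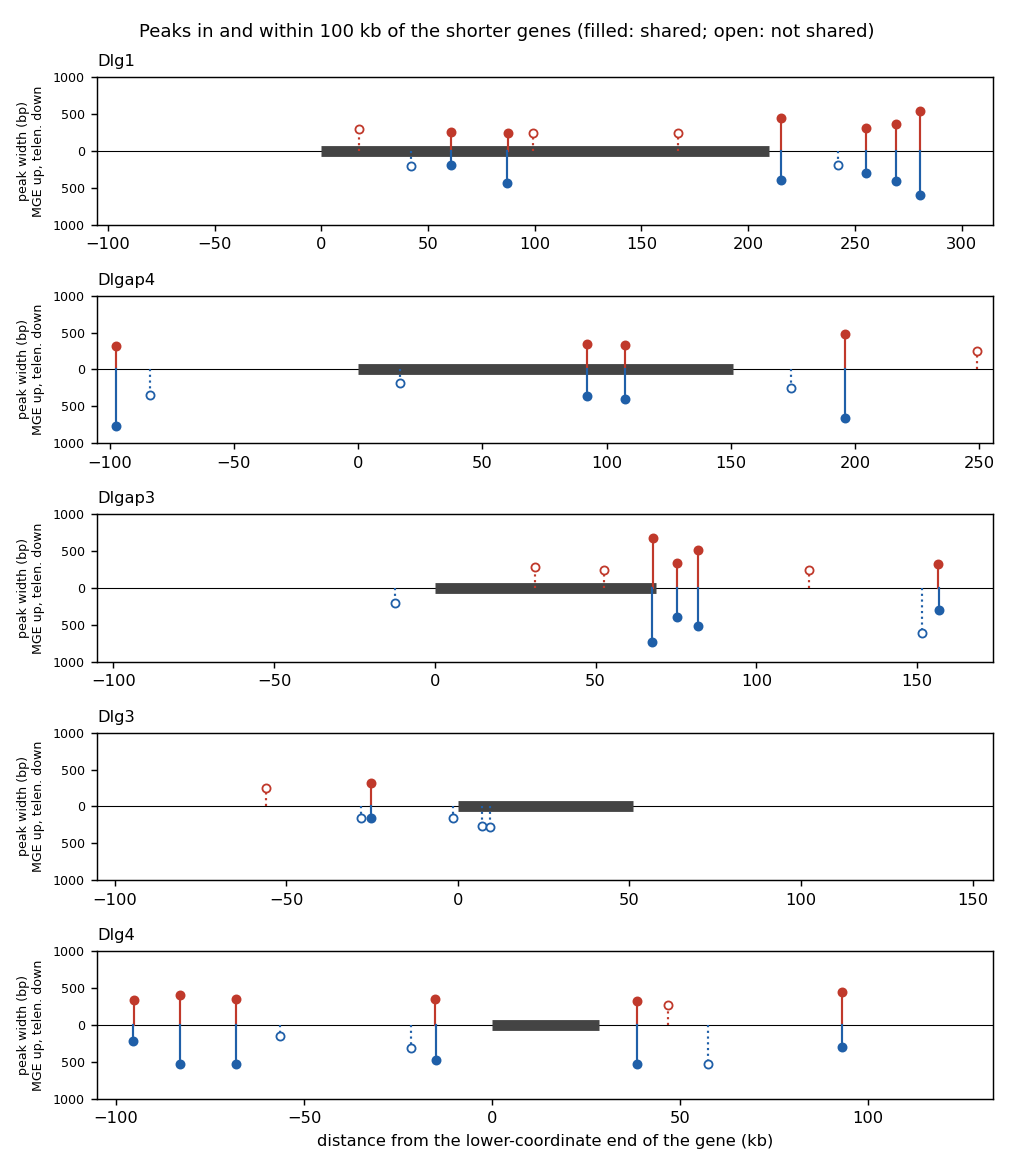
The 5 members under 500 kb are drawn as dark bars with 100 kb on either side, with distance from the lower-coordinate end in kb on the x axis, and each peak is a stem as high as its width in bp, MGE upward and telencephalon downward (filled if shared, open if not). Dlg4 lies between 2 shared sites and has no peak of its own, and Dlg3 has telencephalon stems but no MGE stem within the gene.

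Dlgap1, which encodes the guanylate kinase-associated protein GKAP, had the largest number of shared sites in the family (chr17:69969073-70821413, 852341 bp). It held 9 MGE peaks, 7 of them shared (77.8%, interval 40.0 to 97.2%), and 10 telencephalon peaks, 6 of them shared (60.0%, 26.2 to 87.8%). Among protein-coding genes of at least 500 kb, shared peaks made up 35.3% of MGE peaks and 38.4% of telencephalon peaks. Every MGE peak of Dlgap1 above the minimum width was shared, 7 of 7, and neither of the 2 at the minimum was. Densities were 10.6 and 11.7 per Mb in MGE and telencephalon, and 187 of the 227 genes of this length class had a lower density in each list.

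The shared peaks of Dlgap1 were gathered in the downstream part of the gene. A pair of MGE peaks 54.1% of the way along (chr17:70429691-70430091, 401 bp, and chr17:70430384-70430791, 408 bp) overlapped a single telencephalon peak of 950 bp (chr17:70429750-70430699) by 342 and 316 bp, so that the shared counts were 7 and 6. In the telencephalon list 99.7% of peaks were narrower. The other 5 shared sites lay within 122 kb, from 70633486 to 70755401 in MGE. They were at MGE chr17:70633486-70633829, chr17:70683823-70684206, chr17:70706996-70707353, chr17:70738201-70738660 and chr17:70754897-70755401, with widths of 344, 384, 358, 460 and 505 bp. Their telencephalon partners were 572, 364, 434, 524 and 327 bp wide. Neither list was wider at every site.

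Neither start of Dlgap1 listed by RefSeq had a nearby peak. The start of the gene itself, 69969073, lay 133746 bp from the nearest MGE peak and 118688 bp from the nearest telencephalon peak. The internal start at 70561747 lay 71739 and 34246 bp from them. The lower-coordinate 50% of the gene held 1 MGE peak and 2 telencephalon peaks, none shared. Within 100 kb of the gene there was no MGE peak and there were 2 unshared telencephalon peaks, both above it. Of these, the peak 25646 bp above the gene lay inside Tgif1, a homeobox gene of forebrain patterning. Among the genes with densities most like those of Dlgap1 were Magi1 (9.86 and 11.5 per Mb) and Pkhd1 (10.7 and 10.7). Magi1 encodes another membrane-associated guanylate kinase.

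Dlgap2 was the long member with few MGE peaks (chr8:14095776-14853426, 757651 bp). It encodes a second protein of the GKAP type. It held 1 MGE peak (1.32 per Mb, interval 0.0334 to 7.35) and 5 telencephalon peaks (6.60 per Mb, 2.14 to 15.4). Only 4 of the 227 genes of at least 500 kb had fewer MGE peaks per Mb, while 119 had fewer telencephalon peaks per Mb. The sole shared site lay close to the upper end of the gene, 11004 bp from it in MGE (chr8:14842179-14842422, 244 bp) and 10734 bp from it in telencephalon (chr8:14842203-14842692, 490 bp). The remaining 747 kb below it had no MGE peak. The 4 unshared telencephalon peaks there were 239, 185, 202 and 193 bp wide, each under the narrowest width in the MGE list. With telencephalon peaks under 244 bp left out, an alternative chosen after seeing the data, Dlgap2 held 1 peak in each list. The planned settings kept the telencephalon count the higher. Without peaks at the narrowest width of each list, the counts were 0 in MGE and 5 in telencephalon. In the wider 50% of each list they were 0 and 1, and with equal list lengths 1 and 4. The sole MGE peak was itself at the minimum width.

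Shared sites continued beyond the upper end of Dlgap2. They lay 43674 bp above the gene inside Cln8 (MGE chr8:14897100-14897604, 505 bp; telencephalon chr8:14897056-14897682, 627 bp) and 98884 bp above it inside Arhgef10 (406 and 286 bp). Below the gene there was no MGE peak within 100 kb, and a telencephalon peak of 160 bp lay 2240 bp from it. Genes most like Dlgap2 by density were Arhgap6 (1.96 and 5.89 per Mb), Fgf13 (1.91 and 5.73) and Inpp4b (2.53 and 6.31).

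Dlgap3, a scaffold gene strongly expressed in the striatum (chr4:127168305-127237022, 68718 bp), had the widest MGE peak among the members. This shared peak lay at the downstream end of the gene, 669 bp from the end in MGE (chr4:127235677-127236353, 677 bp) and 661 bp from it in telencephalon (chr4:127235624-127236361, 738 bp). In these lists 99.2% and 98.8% of peaks were narrower. It made Dlgap3 the member with a peak within 1 kb of a gene end, 1 of 8 members in each list, against 12.1% of protein-coding genes in MGE and 19.3% in telencephalon. With ends taken as 500 bp, or peaks placed by their midpoints, no member had a gene-end peak. The other 2 MGE peaks in Dlgap3 (280 and 244 bp) were unshared. The listed start at 127172880 lay 26522 bp from the nearest MGE peak and 16811 bp from the nearest telencephalon peak.

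The wide site of Dlgap3 was the first of a run of shared sites. Among those that followed was a site 12891 bp above the gene in MGE (514 bp wide) and 12980 bp above it in telencephalon (519 bp). Below Dlgap3 the MGE list had no peak within 100 kb, and the telencephalon list had a single peak of 200 bp. A telencephalon peak of 617 bp (chr4:127319393-127320009) had no MGE partner, although 96.3% of the list was narrower.

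Dlgap4 (chr2:156613633-156764363, 150731 bp) was the member with a shared peak over a listed start. The start, at 156720965, lies 107332 bp inside the annotated gene. It was covered by the MGE peak chr2:156720747-156721073 (327 bp) and the telencephalon peak chr2:156720682-156721085 (404 bp), which also overlap 4930405A21Rik at one of its ends. The window was GC-rich, with 76.3% G and C, the highest of the 16 listed windows of the family. The GC share of the windows ranged from 33.7% in Dlg1 to that value. A second shared site lay upstream of that start (MGE chr2:156705511-156705851, 341 bp; telencephalon chr2:156705486-156705839, 354 bp), inside the annotated gene Gm34111. Both MGE peaks of Dlgap4 were shared. The third telencephalon peak, 183 bp wide, was not.

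The flanks of Dlgap4 held a shared site on each side. Below, inside Epb41l1, it lay 97495 bp away in MGE (316 bp) and 97206 bp away in telencephalon (768 bp). Above, it lay 45063 bp away in MGE (475 bp) and 44927 bp away in telencephalon (655 bp). An MGE peak of 244 bp at the promoter of Rab5if, 98340 bp above the gene, was unshared.

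**Figure D4:**
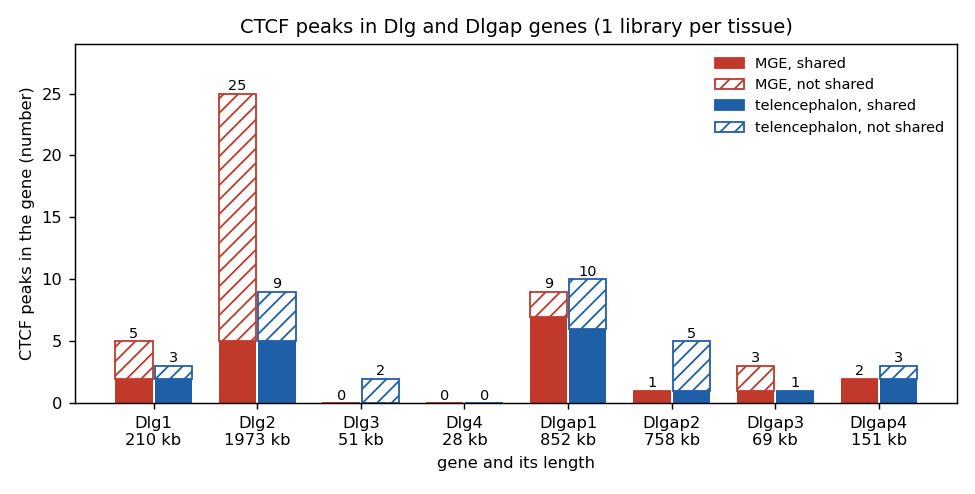
Bars give the number of CTCF peaks in each gene (y axis) for the MGE and telencephalon lists, with shared peaks as solid and unshared peaks as hatched parts, and the length of each gene in kb under its name. Dlg2 has 20 unshared MGE peaks, Dlgap1 has mostly shared peaks, and Dlg4 has none.

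Counted together, 6 of 8 members held MGE peaks in the gene and 7 of 8 held telencephalon peaks, against 31.4% and 39.1% of all protein-coding genes. Peaks in a gene depend on its length, so these shares are read against genes of like length. The 3 members of at least 500 kb all had peaks, as did 99.1% (MGE) and 94.7% (telencephalon) of such genes. So did both members of 100 to 500 kb, against 79.2% and 83.2%. Of the 3 members under 100 kb, 1 held MGE peaks and 2 held telencephalon peaks, against 25.2% and 33.5%. A shared peak was present in 6 of 8 genes, against 24.6% of all protein-coding genes. These values do not compare genes of like length, because 19458 of the 21887 protein-coding genes are under 100 kb, against 3 of the 8 members. The share of genes with a shared peak was not computed by length. With 100 kb added on each side, every member had peaks of both lists, and so did 90.5% (MGE) and 88.9% (telencephalon) of protein-coding genes.

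The members held 45 MGE peaks and 33 telencephalon peaks in 4.09 Mb of gene. Densities were 11.0 per Mb in MGE (interval 8.02 to 14.7) and 8.07 per Mb in telencephalon (5.55 to 11.3), against 11.1 and 15.4 per Mb over all protein-coding genes. In genes of at least 500 kb as a class they were 7.31 and 6.69 per Mb. The order of the lists turned on Dlg2. Without it, the other 7 members held 20 MGE and 24 telencephalon peaks, or 9.44 and 11.3 per Mb.

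Sharing within the genes likewise rested on Dlg2 in the MGE list. Of MGE peaks in the genes, 18 of 45 were shared (40.0%, interval 25.7 to 55.7%), and 13 of 20 without Dlg2 (65.0%, 40.8 to 84.6%). Over all protein-coding genes the share was 65.0%, but in those of at least 500 kb it was 35.3%. In the 3 members of at least 500 kb, 13 of 35 MGE peaks were shared (37.1%, interval 21.5 to 55.1%), so low sharing was usual for genes of that length. Of telencephalon peaks, 17 of 33 were shared (51.5%, 33.5 to 69.2%), and 12 of 24 without Dlg2 (29.1 to 70.9%). The share of telencephalon peaks was 46.8% over all protein-coding genes and 38.4% in those of at least 500 kb. In the families, 7 of 30 MGE peaks were shared in Dlg1 to Dlg4 and 11 of 15 in Dlgap1 to Dlgap4, and 25 of those 30 peaks lay in Dlg2.

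Width went with sharing among the members as it did in the lists at large. Shared peaks in the genes had a median width of 343 bp in MGE and 432 bp in telencephalon, against 244 and 221.5 bp for unshared peaks. Of the 21 MGE peaks at the minimum width, 2 were shared, those in Dlg1 and Dlgap2. Of the 24 wider MGE peaks, 16 were shared, and of the 8 that were not, 6 lay in Dlg2. At 13 of the 18 shared MGE peaks in the genes the telencephalon partner was the wider. The midpoints of partners lay a median of 41.5 bp apart, and the largest distance, 363 bp, was at the double MGE site of Dlgap1.

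**Figure D5:**
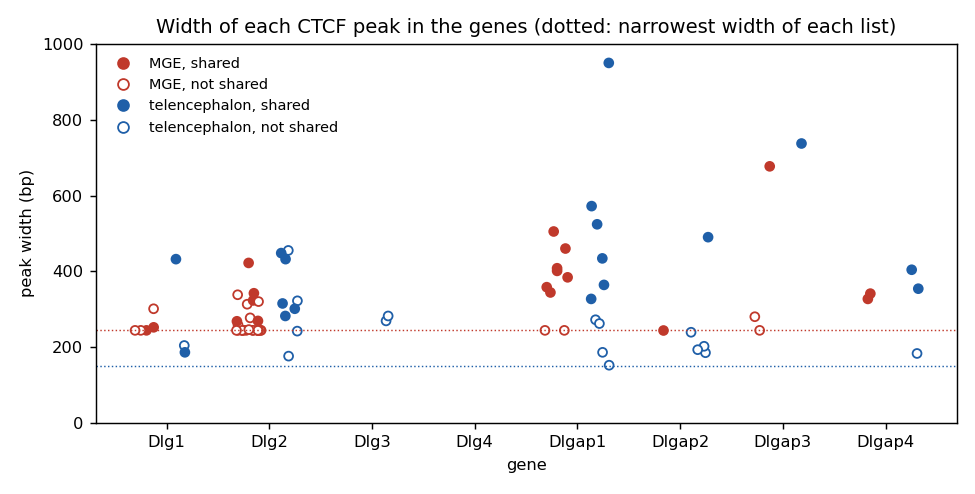
Each point is a peak in a gene, with its width in bp on the y axis, in red for MGE and blue for telencephalon (filled if shared, open if not), and dotted lines mark the narrowest widths of the lists, 244 and 150 bp. Points on the red line are mostly open, and the widest points, in Dlgap1 and Dlgap3, are filled.

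In the 100 kb flanks the members had 24 MGE peaks, of which 19 were shared (79.2%, interval 57.8 to 92.9%), and 34 telencephalon peaks, of which 19 were shared (55.9%, 37.9 to 72.8%). Over the whole lists 58.4% and 47.0% of peaks were shared. Densities in the flanks of the members were 15.0 and 21.3 per Mb. Over all protein-coding genes, such flanks of a gene held a median of 3 MGE peaks (quartiles 1 and 4). The median for telencephalon was 4 peaks (quartiles 2 and 7). In each list 9 flanking peaks of the members lay within 1 kb of an end of another gene. That share was not computed for the flanks of other genes. The border at 100 kb left out an MGE peak 101195 bp above Dlg3 and the peaks 101722 bp (MGE) and 101780 bp (telencephalon) above Dlg2, and it took in those 98884 bp above Dlgap2 and 98340 bp above Dlgap4.

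Other scaffold genes were taken from a list of 26 relatives and partners chosen by function, among them the Magi and Mpp guanylate kinases, Shank and Homer scaffolds and the Lin7 adaptors. Peaks lay in 19 of the 26 genes in MGE and in 23 in telencephalon, against 31.4% and 39.1% of all protein-coding genes. Those shares were 25.2% and 33.5% in genes under 100 kb, and 79.2% and 83.2% in genes of 100 to 500 kb. The partners range from 2674 to 1485406 bp, and their counts were not split by length. The telencephalon count was the higher in 16, the MGE count in 3, and 7 were equal. Gene-end peaks of the MGE list were found at 5 of the 26 genes (19.2%), and telencephalon gene-end peaks at 8 (30.8%). Over all protein-coding genes these shares were 12.1% and 19.3%. Shank2, a scaffold that binds the Dlgap proteins, held 7 MGE peaks, all shared, and 13 telencephalon peaks. Magi2, at 1485406 bp, held 11 MGE and 9 telencephalon peaks, with 2 shared. Magi1 held 6 and 7 peaks, Mpp7 4 and 4, and Magi3 2 and 3. Sipa1l1, which encodes a postsynaptic regulator of the small GTPase Rap (282410 bp), had no peak in the gene in either list. It had 1 telencephalon peak within 1 kb of a gene end, outside the gene. In all, the partners held 47 MGE peaks (9.63 per Mb) and 65 telencephalon peaks (13.3 per Mb). In number of peaks, the MGE excess at Dlg2 had no counterpart of its size among these 26 genes, where the largest was 3, at Mpp5. The 26 genes span only 4.88 Mb, and Dlg2 alone spans 1973059 bp. Per Mb the excess was larger at Mpp5 (91833 bp, 32.7 MGE and 0 telencephalon peaks per Mb) than at Dlg2 (12.7 and 4.56).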

How the data were processed

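CTCF ChIP-seq peak lists of telencephalon and MGE, 1 library each, were used, and the input libraries were not analysed here. Chromatin had been sheared to a mean of 500 bp, per the labels' protocols. MACS2 2.1.1.20160309 and Bowtie2 2.3.2 were named, with build mm10, per the submitters' processing notes. How peaks were thresholded, controlled or filtered is not given in the sources used here. The deposited values are peak positions without a score or count, so read depth is unknown and width alone ranks a peak.

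From these lists, peaks of the autosomes, X and Y were kept (85 MGE and 93 telencephalon peaks lay elsewhere), starts were made 1-based, and overlaps with RefSeq genes (start and end of each gene, without exons) were counted with Python 3.11.15 and pandas 2.3.3. The counting was tested on simulated peaks. Intervals came from scipy 1.17.1. Members, lists and rules were chosen with earlier results of these data known. Named genes were the members, the 5 partners with the most telencephalon peaks, partners of at least 100 kb without a peak, neighbours with a peak near an end, and the 3 genes of at least 500 kb most like each long member; Lingo2, Lrba, Macrod2, Mpp5 and genes in which a flanking peak lies were named after their values were seen. Some named items are not reported here. Groups have 1 sample, so no test between tissues was made.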

Additional observations from a re-analysis of the deposited data

How the results depend on the processing

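Settings changed peak counts more than they changed which genes had peaks. Under the main setting 6 members in MGE had a peak in the gene and 7 in telencephalon. Neither count moved by more than 1.5 times under any alternative run. The MGE count was 5 in the wider 50% of each list and without peaks at the narrowest width. In both of these runs Dlgap2 lost its sole MGE peak. In the wider 50% of each list, peaks in the genes were 17 in MGE and 19 in telencephalon (4.15 and 4.64 per Mb), the shared share of MGE peaks was 76.5%, and that of telencephalon flank peaks 73.9%. Without peaks at the narrowest width, MGE had 24 peaks (5.87 per Mb), with 66.7% shared. Without Dlg2, MGE had 20 peaks with 65.0% shared, and telencephalon density was 11.3 per Mb. With telencephalon peaks under 244 bp left out, chosen after seeing the data, telencephalon density was 5.38 per Mb and the shared share 72.7%. Members with a gene-end peak were 0 in each list with ends of 500 bp or peaks placed by midpoint, and 3 in telencephalon with ends of 5 kb. Flanks of 50 kb held 12 MGE and 19 telencephalon peaks, and flanks of 200 kb held 49 and 78. Of the differences between lists (MGE minus telencephalon), that of Dlg2 turned from 16 to -1 in the wider 50% of peaks and was 2 without the narrowest peaks. That of Dlg1 turned from 2 to -1 without the narrowest peaks. That of Dlgap1 turned from -1 to 1 in the wider 50%, with equal list lengths and without telencephalon peaks under 244 bp. Fewer peaks enter under the settings that leave out peaks by width or list length, which is not so for wider flanks or ends. The cause of the changes was not tested. No paired analysis was possible because each tissue has 1 CTCF library. Depth is unknown, and an absent peak may be a site under the limit of calling.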
